A study of Mus musculus with 42 samples.

Results

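The comparison described here sets untreated Mdc1-/- pre-B cell lines against untreated H2ax-/- pre-B cell lines. Its members were the arrays whose titles give a dose of 0 Gy and 1 of these genotypes, 3 Mdc1-/- and 3 H2ax-/- arrays, 6 of the 42 arrays in the series. The series measured mouse pre-B lines of 7 genotypes (WT, Atm-/-, Scid, Mre11A/A, 53bp1-/-, H2ax-/- and Mdc1-/-), 3 lines each, on arrays of 45101 probe sets. Every line was sampled 2 h after mock treatment and 2 h after 1 Gy of gamma rays. All lines, the WT lines included, came from bone marrow of mice aged 3 to 5 weeks that carried an Em-Bcl2 transgene, which drives the survival factor Bcl2 in B-lineage cells, and all were transformed with a pMSCV-v-abl retrovirus, which carries an activated Abl kinase. The H2ax-/- group held 3 such lines from H2ax-/- mice and the Mdc1-/- group 3 from Mdc1-/- mice, none of them irradiated for the values below unless stated. The labels call the lines biological replicates and name no strain, so genotype and genetic background cannot be told apart, and the p-values measure the spread between lines. Each array reports bulk RNA, in which fewer cells of a type and less RNA per cell cannot be told apart.

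H2ax encodes a histone H2A variant whose tail is phosphorylated around DNA double-strand breaks, mainly by the kinase Atm. Mdc1 is the adaptor that binds the phosphorylated tail and brings in the ubiquitin ligases Rnf8 and Rnf168, whose marks allow 53bp1 and Brca1 to accumulate. In developing B cells breaks arise in each cell as the Rag recombinase joins immunoglobulin gene segments, and the pathway holds the broken ends together until they are joined. H2ax and Mdc1 thus act at successive steps of the same chromatin response.

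The signals of the deleted genes matched the labels. H2ax gave signals of 87.86, 18.74 and 51.78 on the H2ax-/- arrays and 10250, 11530 and 10370 on the Mdc1-/- arrays, and 6036 to 12740 on the 15 untreated arrays of the other genotypes. Mdc1 gave 13.36, 176.5 and 22.04 on the Mdc1-/- arrays and 471.9, 475.3 and 381.9 on the H2ax-/- arrays, with 367.4 to 592.1 in the other genotypes. Neither gene's groups overlapped, and Mdc1-/- line 2 stood above the other Mdc1-/- lines, as it did after 1 Gy, where the Mdc1 signals were 3.521, 128.9 and 20.19. The difference, always Mdc1-/- minus H2ax-/- on log2(signal + 16), was 7.42 ± 0.27 (SE) for H2ax (adjusted p = 7.6e-12) and -2.93 ± 0.44 for Mdc1 (adjusted p = 0.00855).

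**Figure D1:**
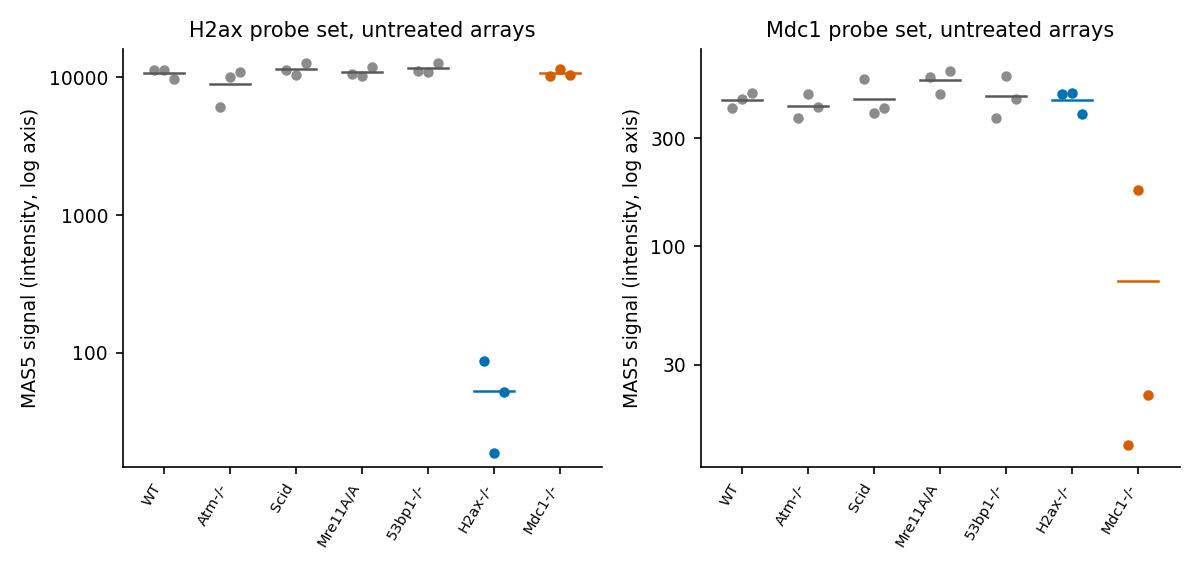
Signal of the H2ax and Mdc1 probe sets (vertical axes, MAS5 intensity, log scale) on the 21 untreated arrays by genotype. Points are arrays and bars are group means. The 3 H2ax-/- arrays lie at 18.74 to 87.86 for H2ax, and the 3 Mdc1-/- arrays at 13.36 to 176.5 for Mdc1, below every other array.

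The 6 arrays carried the markers of pre-B cells. Cd79a, a signalling subunit of the B-cell receptor, gave 9550 to 12200 in Mdc1-/- lines and 7560 to 9090 in H2ax-/- lines, and Vpreb1, a surrogate light chain, 20300 to 21900 and 18100 to 19800. The B-lineage factors Pax5 (612 to 1040 and 630 to 874) and Ebf1 (4480 to 4830 and 4770 to 5870) were also well above the array medians of 62.6 to 75.9. Cd3e and Cd4 of T cells, Ncr1 of NK cells, Mpo of myeloid cells, Hba-a1 of erythroid cells, and Col1a1 and Cdh5 of stromal and endothelial cells all lay below those medians. Other markers of such cells did not: Cd8a of T cells gave 96.6 to 153 and Csf1r of myeloid cells 106 to 163, and Itgam of myeloid cells and Pf4 of megakaryocytes reached 118 and 85.7. The spiked hybridization controls averaged 11.31 to 11.47 (log2) in Mdc1-/- and 11.01 to 11.42 in H2ax-/- arrays. The 11.01 came from H2ax-/- line 1 and was the lowest of all 42 arrays, below the 11.33 to 11.96 of the other untreated arrays. The untreated medians of these controls were 11.38 in H2ax-/-, 11.46 in Mdc1-/-, 11.38 in Mre11A/A and 11.47 in 53bp1-/- arrays. They were higher in WT (11.66), Atm-/- (11.85) and Scid (11.89) arrays, and what this does to comparisons with those genotypes was not tested. The 3' over 5' ratio of Gapdh was alike in Mdc1-/- and H2ax-/- arrays, at 0.832 to 0.853 and 0.833 to 0.844. Over all genes, arrays of the same genotype correlated at 0.960 to 0.970 and arrays of different genotype at 0.947 to 0.963.

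Few genes separated the genotypes beyond the spread between lines. Of 12363 genes tested, 16 were called (0.129%), a gene being called when its p, from limma's moderated test over all 21 untreated arrays with Benjamini-Hochberg adjustment, was under 0.05. Of these, 10 were higher (0.0809%) and 6 lower (0.0485%) in Mdc1-/- lines, H2ax and Mdc1 among them. Before adjustment, p was under 0.05 for 732 genes (5.92%), split into 2.97% of all genes that were higher and 2.95% that were lower. In 1895 genes (15.3%) the 3 arrays of one genotype did not overlap with the 3 of the other, split into 7.6% of all genes higher and 7.73% lower. The median difference over all genes was -0.0041.

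The number of calls rested on single lines. Leaving out Mdc1-/- line 1, 2 or 3 left 4, 6 or 3 called genes, and leaving out H2ax-/- line 1, 2 or 3 left 6, 4 or 19. The arrays of other genotypes enter through the estimate of the spread: the count was 9 without any single Mre11A/A array, 10 without WT line 1, Scid line 1, 53bp1-/- line 2 or 53bp1-/- line 3, and between 11 and 22 without any other. H2ax, Pls3 and Vcpkmt were called without each of the 6 arrays in turn. Mtm1 lost its call without H2ax-/- line 2, Mdc1-/- line 1 or Mdc1-/- line 3 (adjusted p up to 0.0627), and Abi2 and Mdc1 lost theirs without any of these or H2ax-/- line 1 (up to 0.125 and 0.0686). Nuf2, Tmem87a, Wls and Tmem230 stayed called only without H2ax-/- line 3 and Nfu1 only without Mdc1-/- line 1. Iqsec2, Rnf181, Ttf1, Tubgcp4 and 2610507I01Rik lost their calls without any 1 of the 6, with adjusted p up to 0.309. In no alternative did a called gene change direction.

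In 7 of the 14 other called genes the Mdc1-/- lines all lay outside the range of the other genotypes' untreated lines, and the H2ax-/- lines as a group did not. H2ax-/- line 2 was beyond that range in 2 of the 7, above it for Mtm1 and just below it for Nfu1. Pls3 on the X chromosome, which encodes the actin-bundling protein plastin 3, had the smallest adjusted p of the 14. Its signals were 555.4, 374.3 and 654.1 in the Mdc1-/- lines and 3.622, 17.71 and 34.31 in the H2ax-/- lines. No array of the other genotypes was above 36.38, so the gene was high in the Mdc1-/- lines alone among the untreated arrays. The difference was 4.04 ± 0.51 (adjusted p = 0.00204).

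Mtm1, also on the X chromosome, encodes the phosphoinositide phosphatase myotubularin. It gave 359, 751 and 478.1 in the Mdc1-/- lines and 6162, 7792 and 4854 in the H2ax-/- lines, a difference of -3.56 ± 0.52 (adjusted p = 0.00797). The lines of the other genotypes spread from 922.2 to 7467 around a median of 4204, and the WT lines, at 922.2 to 1822, and Atm-/- line 3, at 963.1, were nearest to the Mdc1-/- lines. Of 2 further Mtm1 probe sets, 1454904_at gave the same direction (-3.20 ± 0.55), and 1416934_at, at signals of 155.3 to 295.6, did not (0.28 ± 0.30).

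The other 5 genes of this kind differed by less or had low signals. Tubgcp4 on chromosome 2, a subunit of the gamma-tubulin ring complex that nucleates microtubules, gave 1809, 1686 and 1836 in Mdc1-/- lines and 1273, 1173 and 1147 in H2ax-/- lines, with at most 1316 elsewhere (0.56 ± 0.11, adjusted p = 0.0451). Rnf181 on chromosome 6, a ubiquitin ligase, gave 2220, 2099 and 1999 against 1329, 1548 and 1403, with at most 1718 elsewhere (0.56 ± 0.11, adjusted p = 0.0451). Both genes were thus highest in the 3 Mdc1-/- lines by margins larger than the spread within either group. Nfu1 on chromosome 6, a scaffold for mitochondrial iron-sulfur clusters, ran the other way, at 1083, 853.2 and 884.7 against 1600, 1321 and 1361, with at least 1329 elsewhere (-0.60 ± 0.11, adjusted p = 0.0418). Iqsec2 on the X chromosome, an exchange factor for Arf GTPases, gave 100.3, 115.4 and 117.2 against 25.07, 18.05 and 9.435 (1.95 ± 0.37, adjusted p = 0.0451). The other genotypes' median for Iqsec2, 72.89, was nearer to the Mdc1-/- lines. 2610507I01Rik on chromosome 11 gave 32.17, 4.08 and 13.13 in Mdc1-/- lines, all below the array medians, and 138.9, 106.4 and 105 in H2ax-/- lines (-2.12 ± 0.40, adjusted p = 0.0452). Further probe sets of these 5 genes had the same direction, but none was called. The groups overlapped on those of Rnf181 (0.65 ± 0.45), Iqsec2 (0.92 ± 0.59) and 2610507I01Rik (-0.56 ± 0.51), and not on those of Tubgcp4 and Nfu1.

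In 3 genes it was the H2ax-/- lines that lay outside every other untreated line. Vcpkmt on chromosome 12, which methylates a lysine of the ATPase Vcp, gave 1355, 1306 and 1259 in H2ax-/- lines and 619.4, 576.4 and 655.7 in Mdc1-/- lines. The 15 arrays of the other genotypes ran from 361.1 to 823.4 around 603.8, so the Mdc1-/- lines sat at the level of the rest. Its difference, -1.06 ± 0.15 (adjusted p = 0.00476), kept its call under all 34 alternatives. Nuf2 on chromosome 1, a kinetochore subunit of the Ndc80 complex, gave 839.5, 763.6 and 1025 in H2ax-/- lines and 2035, 2164 and 1962 in Mdc1-/- lines, with 1314 to 3332 elsewhere (1.22 ± 0.19, adjusted p = 0.0113). Abi2 on chromosome 1, an Abl interactor of the actin-regulating WAVE complex, gave 563, 406.3 and 616.8 against 1112, 979.1 and 1439, with 832 to 1932 elsewhere (1.13 ± 0.19, adjusted p = 0.0164). H2ax-/- lines were the low ones in both. Further Abi2 probe sets, 1433985_at (1.10 ± 0.23) and 1458053_at (0.93 ± 0.34), had the same direction without overlap, but neither was called. On these the H2ax-/- lines did not all lie outside the other genotypes. H2ax-/- line 1 gave 524.8 on 1433985_at, where other lines went down to 477.7. H2ax-/- lines 1 and 3 gave 35.94 and 57.57 on 1458053_at, where other lines went down to 27.13.

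The remaining 4 genes separated Mdc1-/- from H2ax-/- lines without either genotype standing apart from the rest. Wls on chromosome 3, the carrier that brings Wnt proteins to the cell surface, gave 925.4, 702.8 and 786.6 in Mdc1-/- lines and 6975, 6114 and 7180 in H2ax-/- lines (-3.05 ± 0.50, adjusted p = 0.016). Other lines covered nearly the whole span, from 573.1 to 6700, with WT lines between 888.6 and 5556. Both further Wls probe sets, 1437434_a_at (-3.37 ± 0.52) and 1423825_at (-2.49 ± 0.46), were called on their own. Tmem87a on chromosome 2, a Golgi membrane protein, gave 826.8, 1566 and 767.1 in Mdc1-/- lines and 14.84, 52.85 and 63.03 in H2ax-/- lines (4.20 ± 0.70, adjusted p = 0.0171). Mre11A/A lines, at 34.19 to 68.92, were as low as the H2ax-/- lines, and 53bp1-/- lines, at 1561 to 1688, as high as the highest Mdc1-/- line. Ttf1 on chromosome 2, the termination factor of RNA polymerase I, gave 511, 476.4 and 553.8 against 262.2, 326.4 and 287.4 (0.79 ± 0.14, adjusted p = 0.0418). A further Ttf1 probe set, 1426610_a_at, gave 461.1, 427.9 and 398.3 against 412, 353 and 373.7 (0.17 ± 0.14), with overlap and without a call. Tmem230 on chromosome 2, a membrane protein of secretory and endosomal vesicles, gave 2021, 2368 and 2211 against 1424, 1477 and 1599 (0.55 ± 0.10, adjusted p = 0.0418).

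**Figure D2:**
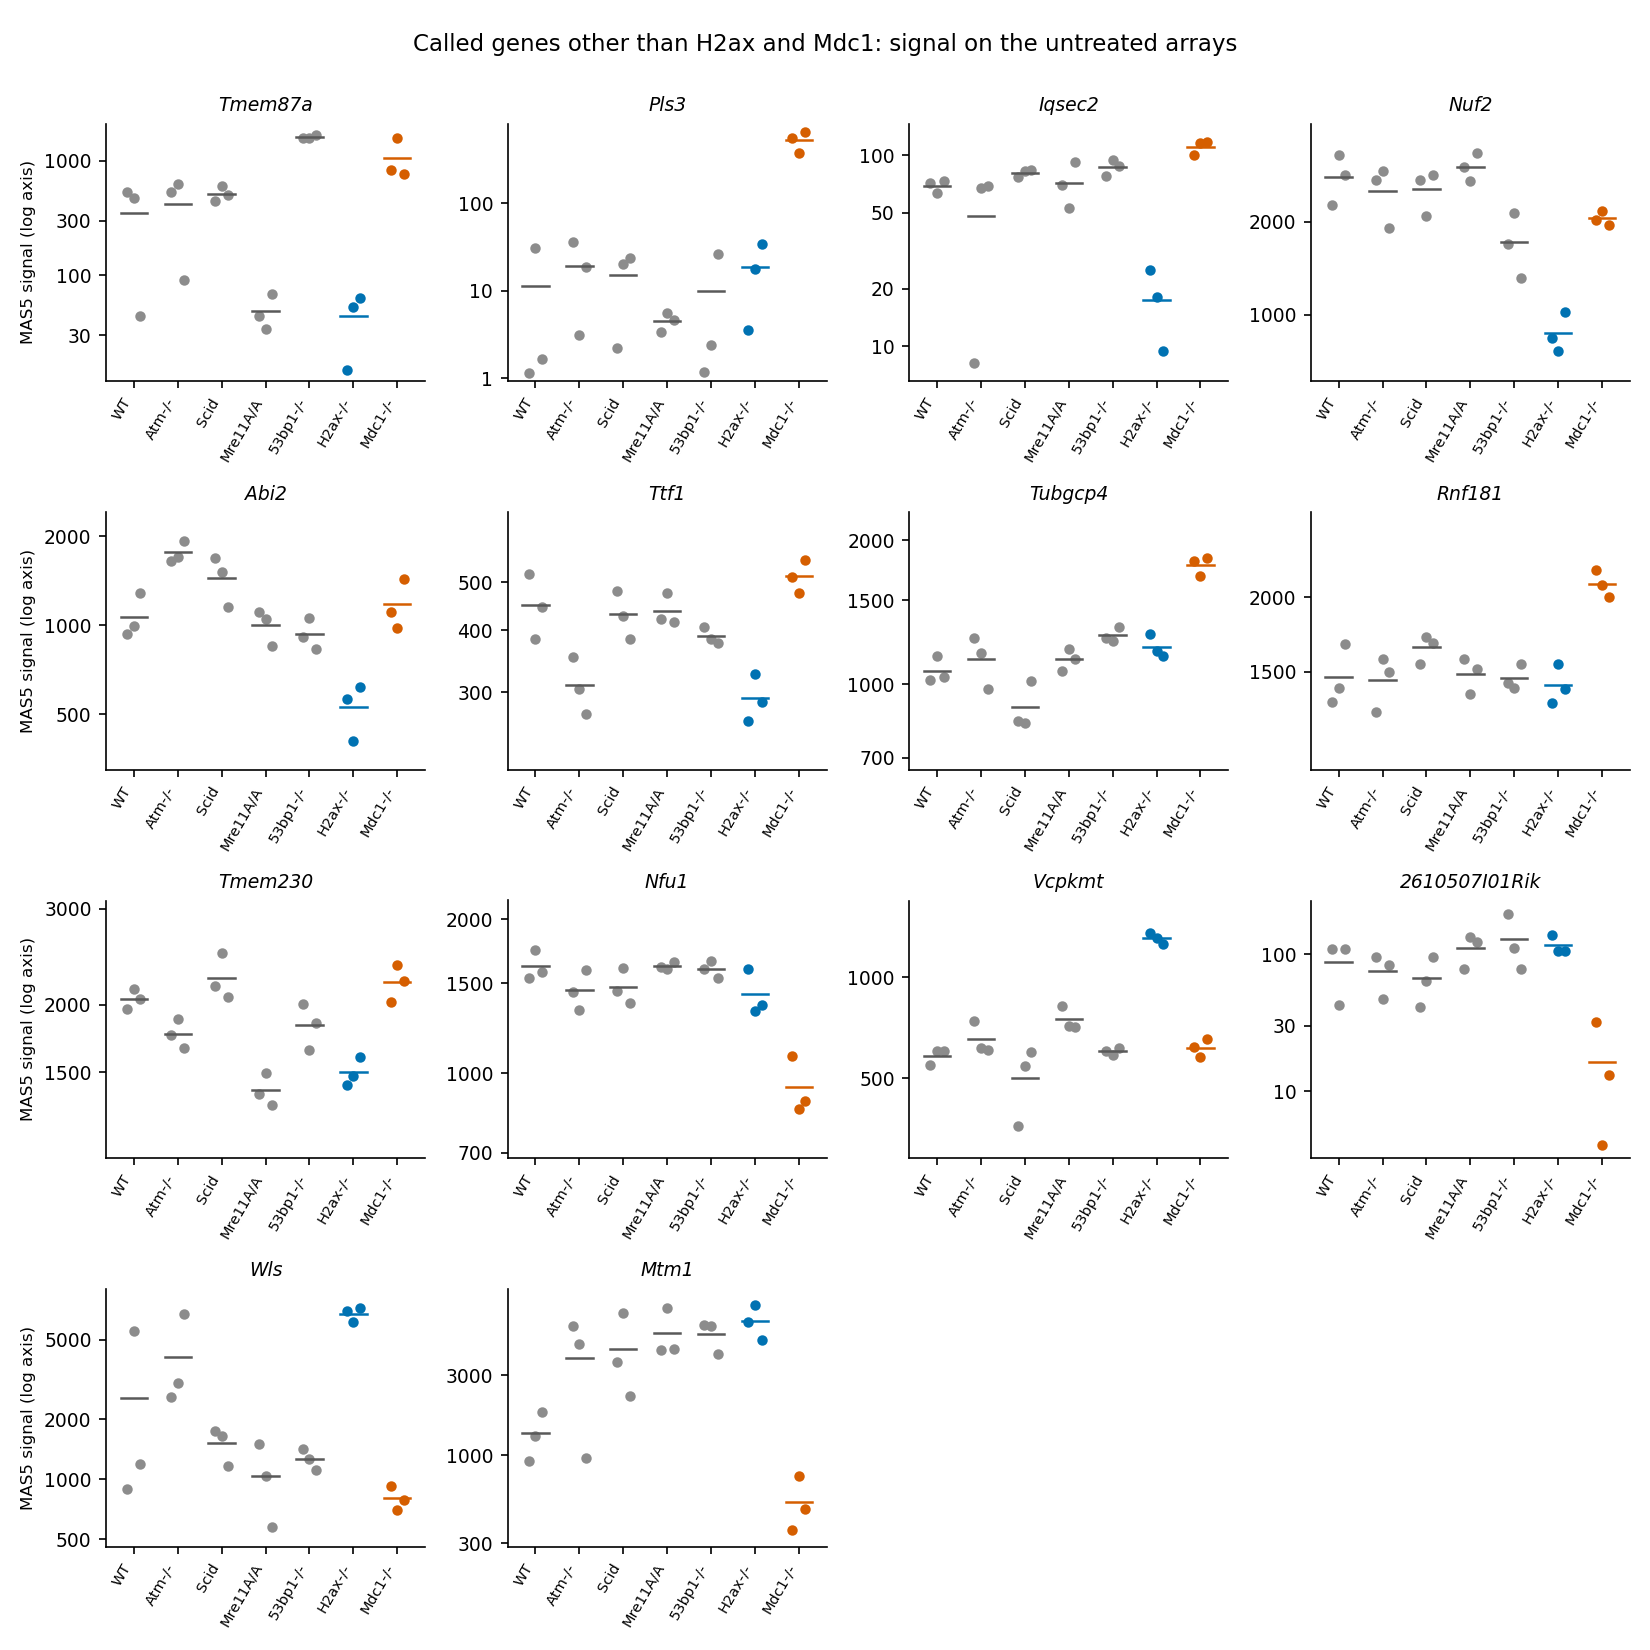
Signal (vertical axes, MAS5 intensity, log scale) of the 14 called genes other than H2ax and Mdc1 on the 21 untreated arrays by genotype, ordered from the most positive to the most negative difference. Points are arrays and bars are group means, with H2ax-/- in blue, Mdc1-/- in orange and the other genotypes in grey. Pls3 is high in the 3 Mdc1-/- lines alone, and Vcpkmt is highest in the 3 H2ax-/- lines, at 1259 to 1355.

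Of the 16 genes called in untreated lines, 9 were called again after 1 Gy. The irradiated arrays gave 19 called genes (0.154%), and the 9 shared genes made up 56.2% of the untreated calls and 47.4% of the 1 Gy calls. Irradiated and untreated arrays of the same line number deviated together from their group means (r = 0.493 to 0.646 across genes), so the doses are not independent evidence. Between numbers r was at most -0.125, which adds no separate support, since deviations from a group's own mean cancel out. The count fell to 7 and 8 without H2ax-/- line 1 and line 2, and to 7 and 6 without Mdc1-/- line 2 and line 3.

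All 14 called genes other than H2ax and Mdc1 kept their direction, and in 13 of them the groups did not overlap after 1 Gy either, against 18.7% of all genes. Pls3 gave 502.3, 336.5 and 689.9 in irradiated Mdc1-/- lines and 3.476, 1.192 and 14.35 in irradiated H2ax-/- lines, and Tmem87a 831.9, 1608 and 776.6 and 14.62, 8.81 and 71.86. Both differences, 4.54 (adjusted p = 2.97e-05) and 4.67 (adjusted p = 0.0136), were close to the untreated ones. Iqsec2 was the exception to the separation: H2ax-/- line 1 gave 118.6 after 1 Gy, above all 3 Mdc1-/- lines, at 80.66 to 101.4. Among the genes called after 1 Gy but not untreated was Myh9, the heavy chain of non-muscle myosin IIA, at -0.79 after 1 Gy (adjusted p = 4.51e-04) and -0.76 untreated (adjusted p = 0.141). Depdc1a gave -1.40 (adjusted p = 0.00307) and -1.28 (adjusted p = 0.141). C1galt1, which extends O-linked glycans, gave 1.77 (adjusted p = 0.04) and 1.61 (adjusted p = 0.0822). These 3 were picked out after their values were seen.

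**Figure D3:**
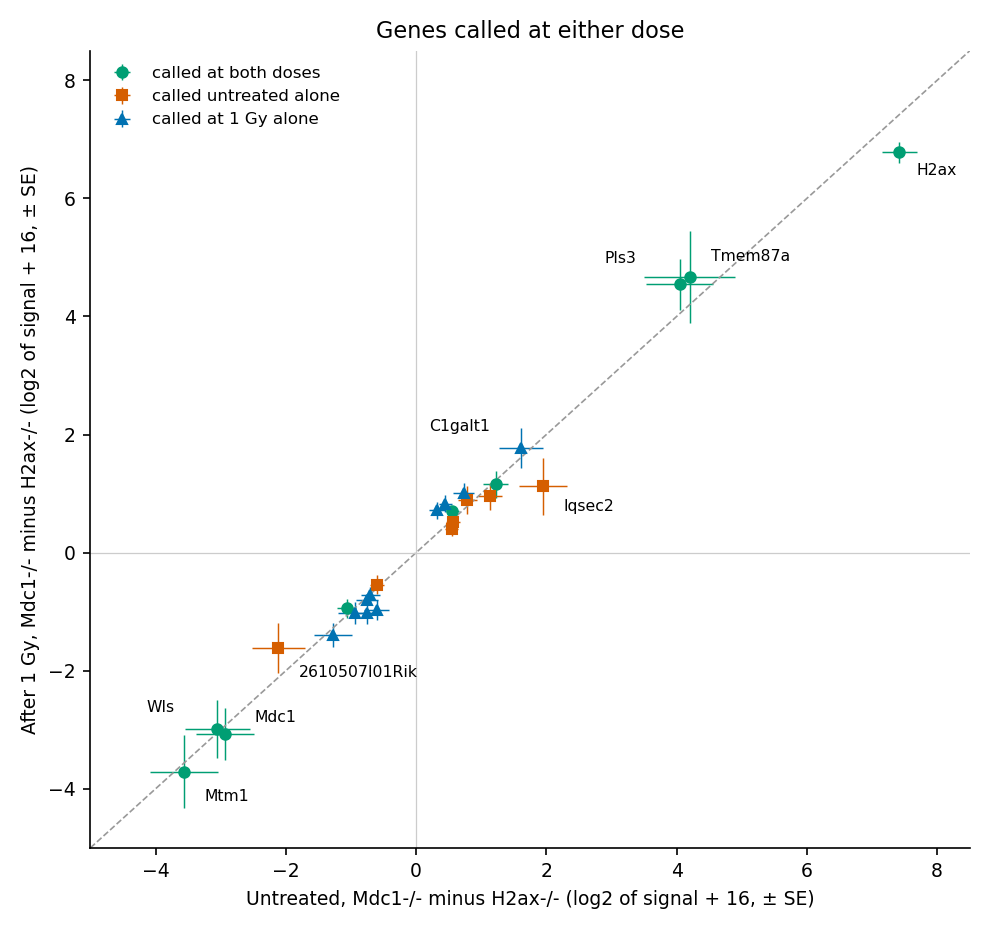
Difference between Mdc1-/- and H2ax-/- lines untreated (horizontal axis) and after 1 Gy (vertical axis), both on log2(signal + 16), for the genes called at either dose. Points are genes, whiskers are standard errors and the dashed line marks equal differences. H2ax lies at 7.42 and 6.78, Pls3 at 4.04 and 4.54, and Mtm1 at -3.56 and -3.71.

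No gene's response to 1 Gy was called different between the genotypes. The test compared each line's own change after radiation, and limma with Benjamini-Hochberg adjustment called 0 of 12363 genes (0%), with 724 (5.86%) at an unadjusted p under 0.05 and a smallest adjusted p of 0.586. Slc1a5, a glutamine transporter, had the smallest p. Its log2 change after radiation was 0.374, 0.474 and 0.366 in the Mdc1-/- lines and 0.144, -0.232 and -0.157 in the H2ax-/- lines, a response difference of 0.49 ± 0.10. The mitotic kinesin Kif18b gave log2 changes of 0.801, 0.686 and 0.709 and of 0.432, -0.262 and 0.114, a response difference of 0.64 ± 0.15. Kif1c (0.77 ± 0.17) and the ubiquitin ligase Trim32 (0.87 ± 0.19) were likewise more positive in all 3 Mdc1-/- lines than in any H2ax-/- line. So was Ang, an angiogenin ribonuclease (1.42 ± 0.33), at low signals in the Mdc1-/- lines. Ang passed the threshold without Mdc1-/- line 3, where 1 gene was called (adjusted p = 0.00301, and up to 1 over its alternatives). Slc1a5 passed without H2ax-/- line 1, where 2 genes were called (adjusted p = 0.0484, and up to 1 over its alternatives).

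A stretch of chromosome 2 held 2 called genes and several neighbours with the same direction. Of the 14 genes besides H2ax and Mdc1, 4 lay on chromosome 2 (7.99% of tested genes) and 3 on the X chromosome (2.98%). Tmem87a and Tubgcp4 were 16 tested genes apart on chromosome 2, by gene order in RefSeq, and were the only called pair within 25 tested genes of each other. Of the 50 tested genes around Tubgcp4, 13 had an unadjusted p under 0.05 (26%, against 5.92% of all genes), 12 of them higher in Mdc1-/- lines. Around Tmem87a, whose 50 neighbours are partly the same, the share was 22%, and around the other called genes it ran from 2% to 14%. The region was singled out after these counts were seen.

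Trp53bp1, the gene of 53bp1 itself, is the tested gene next to Tubgcp4. Its signals were 2574, 2164 and 2732 in Mdc1-/- lines and 1823, 1765 and 1660 in H2ax-/- lines, with at most 2025 in the other genotypes, among them lines labelled 53bp1-/-. The difference was 0.50 ± 0.17 and was not called (adjusted p = 0.627). Lcmt2, 3 tested genes away on the other side, gave 751.1, 755.3 and 783 against 480.3, 402.6 and 481, with at most 568.8 elsewhere (0.73 ± 0.16, adjusted p = 0.118). It was called after 1 Gy (1.01, adjusted p = 0.0136). Adal, Ctdspl2, Lcmt2 and Trp53bp1 were each higher in the 3 Mdc1-/- lines than on all 18 other untreated arrays, a pattern found in 62 of the 12363 genes (0.501%). Further along, Bloc1s6, a subunit of a lysosome-related organelle complex, gave 774.9, 1697 and 935.3 against 21.48, 24.19 and 912.5 (3.28 ± 0.75, adjusted p = 0.147). Here H2ax-/- line 3 was not low, and no line of the other genotypes was below 931.6. Line 3 was also the highest H2ax-/- line on 1417350_at, at 149.1 against 19.49 and 28.02. On 1457088_at all H2ax-/- lines were low, at 9.123, 20.66 and 57.77 against 203.1, 472.6 and 249.8. Other genotypes went down to 32.27 there, and this probe set was called (2.90 ± 0.57, adjusted p = 0.0442). Bloc1s6 was also called with its probe sets averaged (adjusted p = 0.035). The whole chromosome was not shifted: its median difference was -0.00541, within the range of -0.0492 to 0.0182 over the 20 chromosomes with at least 100 tested genes.

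**Figure D4:**
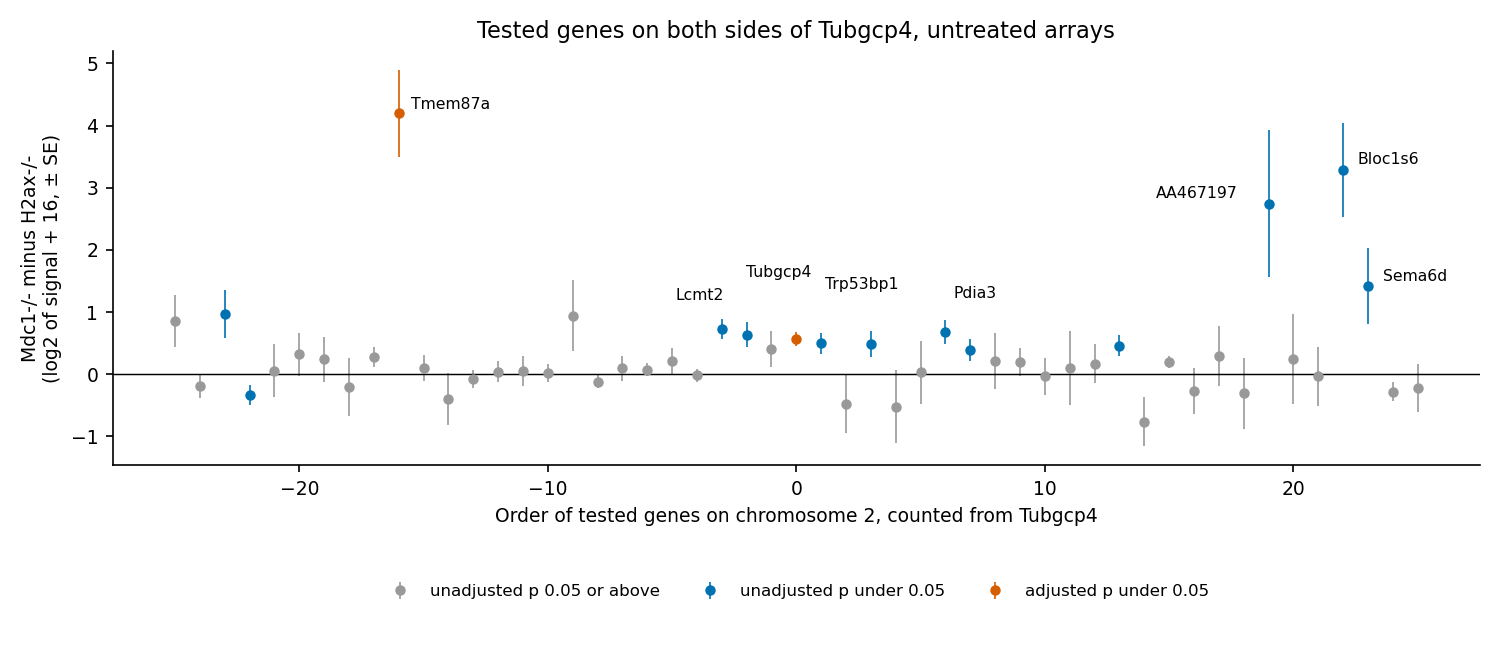
Difference between untreated Mdc1-/- and H2ax-/- lines (vertical axis, log2 of signal + 16, with standard errors) for Tubgcp4 and the 25 tested genes on either side of it, in chromosome order (horizontal axis, counted in tested genes). Grey, blue and orange points mark an unadjusted p of 0.05 or above, an unadjusted p under 0.05 and a called gene. Of the 14 genes in blue or orange, 13 are above 0 and 1, Mga, is below.

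Of the 50 tested genes around H2ax, none was called, 2 had an unadjusted p under 0.05 (4%, against 5.92% of all genes) and in 10 the groups did not overlap (20%, against 15.3%). Around Mdc1 the counts were 0, 4 (8%) and 11 (22%), so both stretches were near the shares over all genes. Dpagt1, the tested gene next to H2ax on chromosome 9, encodes the enzyme that starts N-linked glycan synthesis. It gave 439.4, 414.1 and 415.4 in H2ax-/- lines and 625, 606.1 and 653.8 in Mdc1-/- lines, while no line of another genotype was below 593.9. Its difference of 0.55 ± 0.11 was not called (adjusted p = 0.0781). It was called in 3 alternatives (adjusted p = 0.037 to 0.0473), a count that leaves out the fits without 1 array. Dpagt1 was chosen after its values were seen. Vps11 on the other side of H2ax (-0.10 ± 0.25), and Tubb5 (-0.13 ± 0.11) and Nrm (-0.15 ± 0.20) on either side of Mdc1, overlapped between the groups.

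Trp53bp1 belongs to the break-chromatin list, none of whose 28 tested members was called. In Mdc1-/- lines 15 were higher and 13 lower, and the median difference was 0.0206, beside -0.0041 over all genes. No other member had an unadjusted p under 0.05 (3.57% of the list, 5.92% of all genes). Rnf8 gave 767.2, 723.4 and 769.9 in Mdc1-/- lines and 768.6, 783 and 655.5 in H2ax-/- lines (0.04 ± 0.11), and Rnf168 1014, 1071 and 963.4 and 1004, 900.9 and 942.4 (0.10 ± 0.13). These ubiquitin ligases, which act just after Mdc1, overlapped between the genotypes. The same held for Brca1 (0.20 ± 0.13), for the ubiquitin-conjugating enzyme Ube2n (0.27 ± 0.15) and for Shld2, a shieldin subunit (-0.28 ± 0.16). Of the Mre11 complex, Rad50 (0.02 ± 0.11) overlapped, while Mre11a (-0.09 ± 0.13) and Nbn (-0.11 ± 0.13) were lower in all 3 Mdc1-/- lines by less than 1 SE.

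Atm, the kinase upstream of both, was alike in these lines and unlike the others on 1 of its 2 probe sets, an observation made after its values were seen. On 1421205_at the signals were 285.7, 294.5 and 296 in Mdc1-/- lines and 336.1, 329.5 and 267.4 in H2ax-/- lines. The Atm-/- lines averaged 166.9 there, and the WT, Scid, Mre11A/A and 53bp1-/- lines between 1097 and 1573. On 1428830_at, Mdc1-/- lines gave 887.1, 773.2 and 799.7 and H2ax-/- lines 959.6, 962.3 and 838.1, with averages of 166.3 in Atm-/- lines and 584.6 to 986.4 in the other 4 genotypes. The probe sets thus placed both genotypes differently relative to WT, and neither separated them from each other (-0.08 ± 0.16 and -0.16 ± 0.23).

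Break repair and its partners gave no call either. Of 26 end-joining and homologous recombination genes, 18 were higher and 8 lower in Mdc1-/- lines, none at an unadjusted p under 0.05. Dntt, the template-free polymerase of V(D)J junctions, varied within genotypes, from 1578 to 7893 in Mdc1-/- and from 400.1 to 3803 in H2ax-/- lines (1.77 ± 0.89, adjusted p = 0.854). Paxx (-0.26 ± 0.14) and Nhej1 (0.36 ± 0.23), both Ku-associated end-joining factors, had groups that did not overlap, but changed sign when all probe sets of the gene were averaged (0.45 and -0.11). Among 23 histone and chaperone genes 12 were higher and 11 lower, with a median of 0.0503 that was -0.0148 with probe sets averaged, -0.0433 without H2ax-/- line 2 and -0.0269 without Mdc1-/- line 2. H2aj, an H2A variant, gave 3969, 3513 and 3972 in Mdc1-/- lines and 5373, 4882 and 5398 in H2ax-/- lines (-0.45 ± 0.18, adjusted p = 0.707). H2aw (-0.75 ± 0.25) and H2bc18 (-0.87 ± 0.30) were also lower in all 3 Mdc1-/- lines, without a call. In this list the groups did not overlap in 6 lower members and 1 higher member, beside 7.73% and 7.6% of all genes. An unadjusted p under 0.05 was found for 17.4% of the list, beside 5.92% of all genes. H2ax-/- lines thus had a higher signal than Mdc1-/- lines in H2aj, H2aw and H2bc18. For H2aw, however, the H2ax-/- lines (436, 537 and 600.6) were below the other genotypes' untreated median of 602.5, as were the Mdc1-/- lines (321.3, 330.2 and 264). That median was 3837 for H2aj and 45.93 for H2bc18, nearer to the Mdc1-/- lines. The H2bc18 signals in Mdc1-/- lines, 44.17 to 54.09, were under the array medians. The H2A variants H2az1 (0.11 ± 0.09) and H2az2 (0.06 ± 0.15) overlapped. Supt16, of the FACT chaperone, gave 5608, 5332 and 5368 against 2982, 3131 and 5794, with H2ax-/- line 3 above the Mdc1-/- lines.

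The p53 and NF-kB programmes that breaks engage in these cells were not called different in untreated lines. Of 36 p53 targets 18 were higher and 18 lower, with a median of -0.0136. Ddb2, a damage-recognition factor, gave 379.2, 248.9 and 357.7 against 554.8, 444 and 457.5 (-0.56 ± 0.20, adjusted p = 0.66). Rrm2b (-0.47 ± 0.17, with overlap) and Cd80 (-0.72 ± 0.35, without overlap and at low signals) were lower as well, without a call. Gadd45a ran the other way at 337, 376.9 and 390.1 against 207.3, 235.7 and 251 (0.64 ± 0.35, adjusted p = 0.879). After 1 Gy the list's median was 0.388, with 0 members called. Of 34 NF-kB subunits and targets 9 were higher and 25 lower, with a median of -0.167 untreated and -0.00152 after 1 Gy. Ccl3 had the smallest p of this list, at 3.676, 6.644 and 3.951 against 11.87, 122.4 and 57.44 (-1.665 ± 0.72, adjusted p = 0.777). Its Mdc1-/- signals were all under the array medians. Cd69, an early activation marker, gave 1478, 1189 and 1001 against 1705, 2896 and 1679 (-0.74 ± 0.37, adjusted p = 0.853). Nfkbib, an inhibitor of NF-kB (0.32 ± 0.14, adjusted p = 0.786), and Stat5a (0.40 ± 0.19, adjusted p = 0.829) were higher. The Nfkbib difference was -0.10 when its probe sets were averaged.

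No gene of the B-cell identity list was called, but more members were higher than lower in Mdc1-/- lines: 30 of 46, with a median of 0.117. Ptprc, the CD45 phosphatase, gave 6344, 8012 and 6979 against 5953, 6025 and 2800 (0.60 ± 0.21, adjusted p = 0.66), with H2ax-/- line 3 low. Tcf3, the E2A factor, gave 2976, 3929 and 2976 against 2932, 2746 and 2124 (0.34 ± 0.14, adjusted p = 0.71). Fcrla, a receptor-like protein of B cells, ran the other way at 410.6, 277.9 and 305.4 against 877, 1036 and 716.6 (-1.37 ± 0.55, adjusted p = 0.71). Of 12 pre-B receptor, recombinase and immunoglobulin genes 0 had an unadjusted p under 0.05. Igll1, a surrogate light chain, gave 22600, 20600 and 19940 against 15850, 16870 and 15810 (0.38 ± 0.22, adjusted p = 0.919). Rag1 gave 606.7, 298.5 and 1378 against 1534, 972.1 and 1155 (-0.91 ± 0.66), with overlap. Iglv1, a lambda variable segment, stood at 5871 in H2ax-/- line 2 and at 39.11 to 177.5 on the other 5 arrays.

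None of the 47 tested genes of cytokine receptor, Jak-Stat and Abl signalling was called (25 higher, 22 lower, median 0.027). Ccnd3, a G1 cyclin, gave 16430, 16790 and 15900 against 12800, 11990 and 15150 (0.31 ± 0.10, adjusted p = 0.617). Socs1, a feedback inhibitor of Jak kinases, gave 413.3, 327.7 and 260.7 against 236.8, 204.3 and 139 (0.75 ± 0.27, adjusted p = 0.66). Both genes were higher in all 3 Mdc1-/- lines than in any H2ax-/- line. Bcl2 gave 1087, 173.8 and 1135 against 1871, 1767 and 1202 (-1.36 ± 0.50, adjusted p = 0.66), with Mdc1-/- line 2 far below the other 5 arrays. Of the apoptosis list of 30 genes, which gave a median of 0.0116, Bid (0.47 ± 0.17) and Bak1 (0.52 ± 0.24) were higher in all 3 Mdc1-/- lines, and Bcl2l11 overlapped (-0.56 ± 0.27). Selplg, the selectin ligand, gave 2947, 3883 and 3230 against 2353, 2258 and 2329 (0.52 ± 0.19, adjusted p = 0.66). In the same homing list of 26 genes, which had a median of 0.0267, Itga4 overlapped (0.77 ± 0.26).

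Of the 26 tested cholesterol synthesis genes 23 were lower in Mdc1-/- lines and 3 higher, with a median of -0.19 untreated and -0.208 after 1 Gy. In 9 members the groups did not overlap, all 9 lower, beside 7.73% of all genes, and 2 had an unadjusted p under 0.05. Hsd17b7 gave 660.7, 770.1 and 629.2 against 786.7, 933.6 and 901 (-0.34 ± 0.14, adjusted p = 0.71). Lss, lanosterol synthase, gave 454.4, 598.8 and 602.6 against 659.4, 740.3 and 638.2 (-0.30 ± 0.19, adjusted p = 0.949). The regulator Srebf2 (-0.03 ± 0.17) and the squalene epoxidase gene Sqle (-0.03 ± 0.16) overlapped, and no member was called. Among 34 heat shock and unfolded protein genes, 17 were higher and 17 lower with a median of -0.00038, and 4 lower and 1 higher had an unadjusted p under 0.05. Trib3 gave 186.2, 115.1 and 54.68 against 290.8, 464.1 and 474.5 (-1.76 ± 0.55, adjusted p = 0.514), Atf3 -1.21 ± 0.44 and the asparagine synthetase gene Asns -0.98 ± 0.41. The untreated groups did not overlap in these 3, none of them called, and those of Atf3 overlapped after 1 Gy. Pdia3, an endoplasmic reticulum disulfide isomerase from the Tubgcp4 region, was higher, at 11990, 8784 and 9177 against 5979, 6122 and 6375 (0.68 ± 0.19, adjusted p = 0.392).

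Interferon, antigen presentation and cell cycle lists gave single genes. Of 40 interferon response genes, 4 were higher and 2 lower at an unadjusted p under 0.05. Xaf1 gave 80.64, 47.06 and 85.21 against 406.4, 253.2 and 230.1 (-1.84 ± 0.42, adjusted p = 0.141). It was called without Atm-/- line 3 (adjusted p = 0.00397) and in both fits over all 42 arrays (adjusted p = 0.012 and 0.0238), with up to 0.919 over its 34 alternatives. Another Xaf1 probe set, the one left when genes were filtered on a mean signal of 200, gave 2.84 instead. Oas1a, a sensor of double-stranded RNA, gave 210.5, 82.16 and 164.8 against 27.55, 25.76 and 27.17 (1.89 ± 0.72), and Gbp2 2208, 1407 and 1839 against 765, 450.8 and 1123 (1.27 ± 0.50). B2m, the light chain of MHC class I, gave 27050, 27350 and 24520 against 22350, 24180 and 22210 (0.20 ± 0.10), and Nlrc5, its transactivator, was higher as well (0.50 ± 0.26). None of these 5 was called. The median was 0.0642 over 49 G1/S genes and 0.00541 over 39 G2/M genes, of which 0 had an unadjusted p under 0.05, and Mki67 gave 14670, 14720 and 14720 against 12780, 12850 and 14550 (0.14 ± 0.10). In the hypoxia and glycolysis list of 32, Egln3 varied from 36.55 to 682.4 within the Mdc1-/- lines and from 4.564 to 34.65 within the H2ax-/- lines (2.41 ± 0.97, adjusted p = 0.71). The 17 imprinted and X-inactivation genes had a median of -0.161 with 0 at an unadjusted p under 0.05.

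No marker of another cell type was called. Of 12 myeloid markers that passed the filter 8 were higher, with a median of 0.253, and the list's summed signal was 966.6 to 2479 in Mdc1-/- and 655.5 to 1087 in H2ax-/- lines. Cybb, the oxidase subunit that B cells also express, gave 834.4, 1456 and 284.8 against 46.21, 81.14 and 112.1 (2.98 ± 0.66, adjusted p = 0.12). It was called without Atm-/- line 2 (adjusted p = 0.0418) and with all 42 arrays and the line as a random block (adjusted p = 0.012), with up to 0.508 over its 34 alternatives. Among other myeloid genes, Elane, the neutrophil elastase, gave 50.55, 53.07 and 46.03 against 20.18, 21.91 and 4.283 untreated, below the array medians throughout, and its groups overlapped after 1 Gy. Lyz2, a lysozyme, gave 280.6, 132.6 and 51.4 against 23.95, 178 and 39.2, and the integrin Itgam 118.4, 16.56 and 98.05 against 53.55, 46.2 and 4.312, both with overlap. Mpo, the myeloperoxidase, gave 29.7 to 44.7 on the 6 arrays. The summed signal of 6 T-cell markers was 1158 to 1686 and 940.9 to 1697, that of 9 stromal and endothelial markers 11010 to 11950 and 9625 to 11970, and that of 6 erythroid and megakaryocyte markers 19520 to 28010 and 19450 to 23580. The 2 NK markers tested summed to 76.43 to 307.1 and 117.1 to 216.3. The 9 progenitor markers summed to 2304 to 2680 in Mdc1-/- lines, above the 1319 to 1821 of H2ax-/- lines. As single genes, however, 4 were higher and 5 lower, with a median of -0.123. Lmo2 of this list gave 923.1, 933.4 and 358.8 against 208.9, 381.5 and 360 (1.11 ± 0.40, adjusted p = 0.66), with overlap. The part of such markers in the differences above was not tested.

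**Figure D5:**
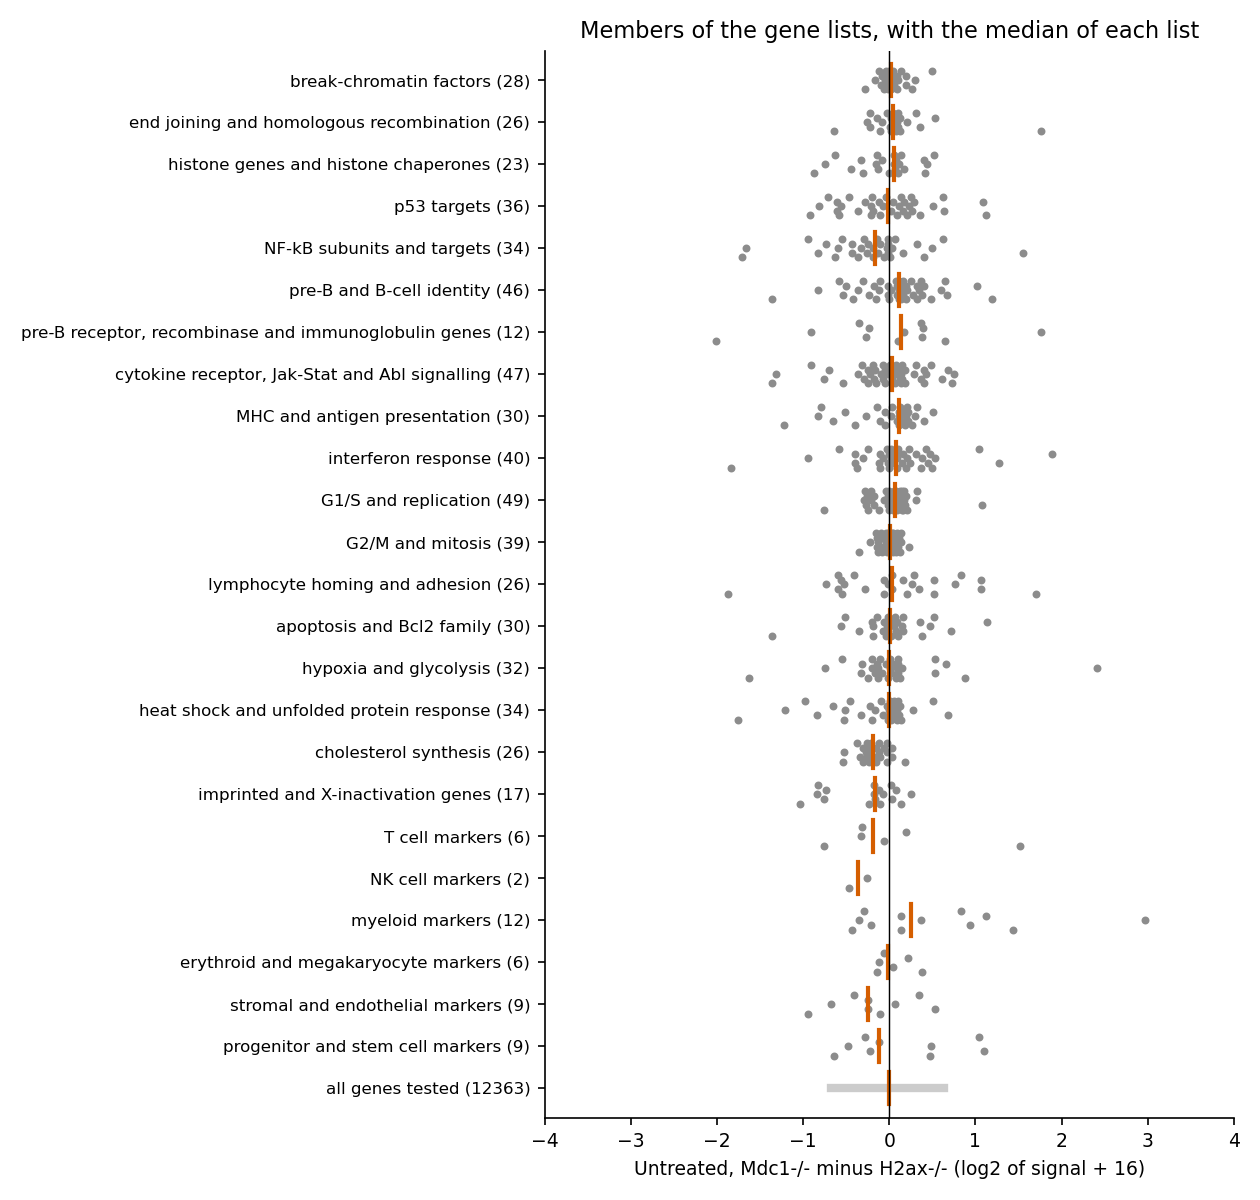
Difference between untreated Mdc1-/- and H2ax-/- lines (horizontal axis, log2 of signal + 16) for the tested members of each gene list (vertical axis, number of members in brackets). Points are genes, orange bars are list medians, and the grey band covers the middle 90% of all genes tested. Cholesterol synthesis has the median -0.19, with 23 of 26 members below 0.

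Some genes were called on 1 probe set and not on another. Over all 28260 probe sets that passed the filter, 50 were called (0.177%), 28 higher and 22 lower, and 19 of them belonged to genes whose brightest probe set, the one used above, was a different one. The examples here were chosen after their values were seen. Probe sequences were not used here, so which probe set of a gene follows its RNA level was not tested, and these values are differences of single probe sets. Whether the lines differ in DNA sequence under these probes, which could change a signal without a change in RNA, was not tested either. For Phgdh, the first enzyme of serine synthesis, the probe set 1454714_x_at gave 12150, 10680 and 9372 in Mdc1-/- lines and 551.6, 401.8 and 336.4 in H2ax-/- lines (4.61 ± 0.21, adjusted p = 2.05e-10), with at least 5155 in the other genotypes. A probe set annotated to both Gm6756 and Phgdh, 1456471_x_at, had the same direction, at 3410, 3779 and 3217 against 509, 377.5 and 416.3 (2.96 ± 0.16). The other 3 probe sets with Phgdh as their only symbol were between -0.36 and -0.19. Of these, 1437621_x_at gave 11500, 10720 and 8799 against 11930, 13950 and 13820. For Psmd6, a proteasome lid subunit, 1423696_a_at gave 616.6, 675.5 and 634.5 against 6365, 5730 and 7045 (-3.28 ± 0.15, adjusted p = 2.69e-10), and 1423697_at 8332, 7136 and 6839 against 7501, 7559 and 6686 (0.03 ± 0.08). The low signal on 1423696_a_at was shared by the 53bp1-/- lines, which averaged 624.6. The WT, Atm-/-, Scid and Mre11A/A lines averaged between 6490 and 7687 there. On 1437621_x_at the Phgdh groups did not overlap either, in the opposite direction and without a call, while on 1423697_at the Psmd6 groups overlapped. Ctse, a cathepsin, differed by 2.65 ± 0.33 on 1427797_s_at and by 0.46 ± 1.23 on 1418989_at. Ndel1, a dynein regulator, differed by -2.50 ± 0.38 on 1424893_at and by -0.13 ± 0.11 on 1422568_at.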

How the data were processed

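The values are MAS5 signals (intensity) that the authors deposited in one table of 45101 probe sets and 42 arrays. MAS5 is named per the submitters' processing notes, its settings are not given in the sources used here, and the mean signal of each array, trimmed by 2% at each end, was 500. Gene names came from the platform annotation, and chromosome and gene order from RefSeq (GRCm38.p6 table, 12301 of 12363 genes matched). Probe sets above the array median on at least 3 arrays and with 1 symbol were kept, and the probe set with the highest mean over the 42 arrays stood for its gene. Differences are on log2(signal + 16) and were tested with limma 3.58.1 (lmFit, eBayes with a variance trend, Benjamini-Hochberg) in R 4.3.3, one mean per genotype over the 21 untreated arrays (14 residual degrees of freedom). The 1 Gy arrays were fitted alike, and the response test used each line's own change. With 3 arrays a group, their number limits the precision. The scripts were tested on simulated data. The comparison, its genes and the 25 gene lists were chosen with earlier results of these data known. The text names the deleted genes, called genes without overlap, up to 4 members per list and 5 genes of the response test by smallest p, and says where others were picked by their values.

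Replicate numbers do not pair the genotypes: deviations of equal-numbered Mdc1-/- and H2ax-/- lines correlated at -0.0228, 0.0717 and 0.105.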

Additional observations from a re-analysis of the deposited data

Results flagged for a closer look

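In all, 15 probe sets that have no single gene name in the annotation used were called between untreated Mdc1-/- and H2ax-/- lines. They stand outside the comparisons of genes above, and are given for that reason as log2 differences, Mdc1-/- minus H2ax-/-. The largest were 1455869_at at 7.90, with 23650, 26880 and 19240 in Mdc1-/- lines and 236.6, 65.23 and 27.76 in H2ax-/- lines, and 1431213_a_at at 6.78, with 17850, 22110 and 15220 and 277.2, 91.97 and 126.2. The other genotypes' untreated lines ran from 7.509 to 18890 and from 142.7 to 13340, so on both probe sets every Mdc1-/- line lay above them. On 1431213_a_at, H2ax-/- lines 2 and 3 lay below them. Of the other unnamed ones, 1442447_at (3.53), 1439686_at (2.94), 1427798_x_at (2.76) and 1455892_x_at (2.46) were higher in Mdc1-/- lines. Lower were 1434279_at (-3.20), 1429846_at (-2.98), 1445014_at (-2.79), 1445254_at (-2.31), 1444195_at (-1.63) and 1442109_at (-1.26). With several symbols, 1456471_x_at (Gm6756 and Phgdh) differed by 2.96, 1426394_at (Eif3j1 and Eif3j2) by 0.67 and 1435865_at (H2aw and Trim17) by -0.946.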

How the results depend on the processing

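The 16 calls became 9 with no filter on low signals, 50 over every probe set, and 36 with all 42 arrays and the line as a random block, where 13 of the 16 were shared. Other settings gave 11 to 24 calls, among them 15 with the 6 arrays alone, of which 7 were shared. Leaving out each of the 6 arrays gave 3 to 19, and each of the other 15 gave 9 to 22. The 19 calls after 1 Gy became 57 over every probe set, 56 with the line as a random block and 37 with all 42 arrays as independent, and 6 to 17, or 15 to 26, with an array left out. The 0 calls of the response test became 0 to 2 without 1 line, and stayed 0 in its other settings. A replicate block gave 10 untreated calls, 9 of them shared, and 20 after 1 Gy, although the numbers mark no known pairing and not every line correlated best with its own number. The causes of these changes were not tested. Signals under the array medians of 62.6 to 75.9 (2610507I01Rik in Mdc1-/- lines, and Iqsec2, Pls3 and Tmem87a in H2ax-/- lines) limit what their differences show. Counted once per list and alternative setting, 816 medians of the 25 lists differed from their main value by less than the spread between lines, and 8 did not. Direction was not part of this count. Among the 8 was the histone list, at -0.0148 with probe sets averaged.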
